A study of Caenorhabditis elegans with 6 samples.

Results

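The genes examined here were 10 DNA damage checkpoint genes of *C. elegans*, chosen by their symbols: *cep-1*, *atm-1*, *atl-1*, *chk-1*, *chk-2*, *hus-1*, *mrt-2*, *clk-2*, *brc-1* and *brd-1*. All 10 were matched to a single gene identifier among the 46904 genes of the count tables. Poly(A) RNA-seq was performed on whole L1 larvae, the earliest larval stage, with 2 libraries for each of 3 strains. Wild-type was N2, the *csb-1* strain was RB1801 carrying *csb-1(ok2335)*, and the *xpc-1* strain was TG2226 carrying *xpc-1(tm3886)*. All larvae were fed *E. coli* on plates and were left untreated, so no damage was added. CSB-1 starts transcription-coupled repair and XPC-1 starts global repair, the branches by which nucleotide excision repair finds lesions. Each mutant was 1 allele in 1 line, and the labels do not give the number of animals per library. In RNA from whole animals, fewer cells of a type and less RNA per cell cannot be told apart. The question asked of these genes was how strongly they are expressed at this stage, and whether their transcripts change when either branch of repair is missing.

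The DNA damage checkpoint is a kinase cascade. ATM-1 and ATL-1, the worm counterparts of ATM and ATR, respond to broken and to single-stranded DNA. A ring-shaped clamp built from HUS-1, MRT-2 and HPR-9 takes part in checkpoint signalling. The signal passes to the kinases CHK-1 and CHK-2 and, in the germ line, to CEP-1, the worm p53, which switches on *egl-1* and *ced-13* and so triggers apoptosis. Most of this response has been described in the worm germ line and in early embryos, while somatic cells of larvae are largely refractory to damage-induced apoptosis. CLK-2 is the worm Tel2, a factor needed for the checkpoint response, and BRC-1 and BRD-1 form the worm BRCA1-BARD1 ubiquitin ligase, which acts in recombination repair. Checkpoint proteins are regulated largely by phosphorylation, which transcript counts do not measure.

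The libraries held between 41643033 and 48371365 counts on genes. The targeted *xpc-1* gene fell to 18.0 and 17.9 CPM (counts relative to library size, scaled with edgeR's TMM factors) in *xpc-1*, from 43.5 and 40.1 CPM in wild-type. The *csb-1* gene had 17.5 and 8.04 CPM in *csb-1* against 20.6 and 22.9 CPM in wild-type, and a deletion of part of the gene cannot be seen in a count over the whole gene. The *csb-1* libraries stood apart from each other, with a Spearman's correlation of counts across genes of 0.747 (16808 genes), against 0.990 for the wild-type pair and 0.991 for the *xpc-1* pair. Ribosomal protein genes took 4.59% of the counts in *csb-1* replicate 1 and 23.1% in replicate 2, against 10.7% and 10.9% in wild-type. Every result for *csb-1* rests on these unlike libraries and is therefore given library by library. As markers of larvae, genes of body wall muscle, neurons, intestine and epidermis were detected, although the epidermal collagen gene *dpy-7* had 2 counts in *csb-1* replicate 2, and the summed level of 6 vitellogenin genes, which mark the adult gut, was at most 2.43 TPM in any library. TPM, a length-corrected level, divides counts by exon length and scales each library to the same total, so it allows levels to be compared between genes.

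All 10 genes were detected in every library, with between 62 counts for *chk-2* in *csb-1* replicate 2 and 4992 counts for *atl-1* in wild-type replicate 1. In wild-type they lay in the middle of the range of expression, as 9 of them were between the percentiles 55.8 and 72.4 of the 25250 genes with a level above 0. Among the 18762 protein-coding genes above 0, these 9 lay between the percentiles 43.2 and 63.5. The highest was *chk-1*, which encodes the effector kinase of the ATR branch, with 20.8 ± 4.01 TPM (SD, n = 2). It was followed by *atl-1* at 16.3 ± 1.20 TPM, *mrt-2* at 14.6 ± 1.21 TPM, *clk-2* at 14.4 ± 1.53 TPM and *atm-1* at 12.97 ± 0.0801 TPM. Below these came *brd-1* at 9.01 ± 0.279 TPM, *brc-1* at 7.96 ± 0.707 TPM, *cep-1* at 6.67 ± 0.126 TPM and *hus-1* at 6.17 ± 0.142 TPM. *chk-2*, whose kinase is known for its part in meiotic chromosome pairing and break formation, was the lowest at 1.98 ± 0.728 TPM, which is percentile 41.6. Its level was 3.11 times below that of *hus-1*, the widest gap between neighbours in the order. Neighbours were told apart by whether both wild-type libraries of one gene lay above both of the next. By this measure *atl-1* and *mrt-2* did not differ beyond their spread, nor did *mrt-2* and *clk-2*, whose means differed 1.01-fold. The other neighbours did not overlap, although *cep-1* and *hus-1* differed only 1.08-fold. With 2 libraries the order could not be tested. It also rests on the length used, since only 4 of the 10 genes kept their place when levels were divided by the whole gene span, introns included.

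**Figure D1:**
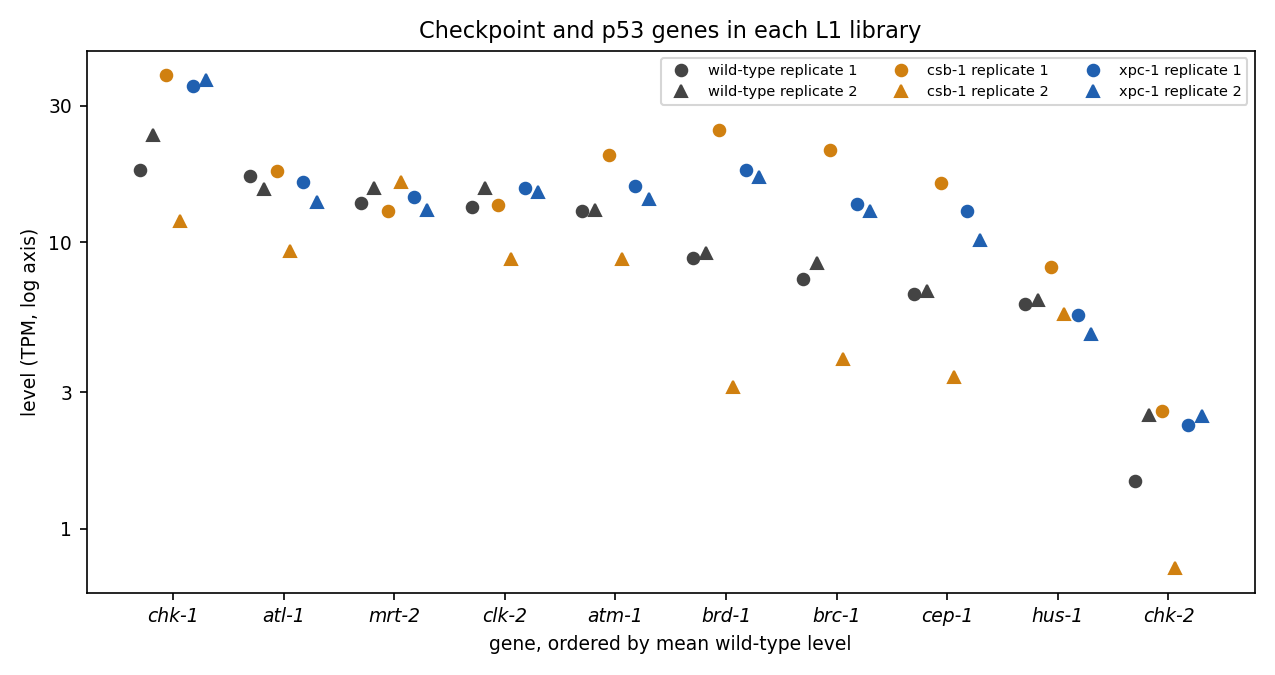
Level in TPM (log axis) of each of the 10 genes in each of the 6 libraries, with genes ordered by their mean in wild-type and 1 point per library. The 2 *xpc-1* libraries of *chk-1*, *brd-1*, *brc-1* and *cep-1* lie above both wild-type libraries, while the *csb-1* libraries of these genes lie on either side, for example at 24.7 and 3.11 TPM for *brd-1*.

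In *xpc-1*, transcripts of *cep-1*, *chk-1*, *brc-1* and *brd-1* rose between 1.58 and 1.83-fold, and the other 6 genes did not pass the test. In the edgeR quasi-likelihood test of these 4 libraries, 4 of the 10 genes were called higher and 0 lower at an adjusted p under 0.05. Calls were common in this comparison. Of the 17924 genes tested, 37.1% were called, 20.0% higher and 17.1% lower. The share of checkpoint genes called in either direction was close to that of all genes, but all 4 calls among the 10 were higher. The median log2 fold change was 0.16 over the 10 genes and -0.017 over all genes tested. In TMM-scaled CPM, both *xpc-1* libraries lay above both wild-type libraries in 5 of the 10 genes and below them in 3, against 34.4% above and 35.1% below among all genes tested. None of the genes lies on chromosome IV, which carries *xpc-1*.

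*cep-1* (WBGene00000467, chromosome I, 8324120 to 8328853 on the plus strand of WBcel235, with 2136 exon bases) encodes the transcription factor that carries the p53 response. Its level was 6.58 and 6.76 TPM in the wild-type libraries, and 12.9 and 10.2 TPM in the *xpc-1* libraries. The groups did not overlap, and the *xpc-1* libraries were further from each other than the wild-type libraries were. The log2 fold change was 0.71 (standard error 0.15, edgeR adjusted p = 0.00578). This call was lost without *xpc-1* replicate 1, where the log2 fold change was 0.56 with an adjusted p of 0.0522, within a range of adjusted p over the alternatives from 0.000114 to 0.948.

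The upstream kinases did not pass the test. *atm-1* (WBGene00000227, chromosome I, 183364 to 208465, plus strand) had 12.9 and 13.03 TPM in wild-type against 15.7 and 14.1 TPM in *xpc-1*. Both *xpc-1* libraries were higher, but the log2 fold change was 0.12 with a 95% interval from -0.081 to 0.32 (adjusted p = 0.325). *atl-1* (WBGene00000226, chromosome V, 9634861 to 9645595, minus strand), whose ATR-like kinase is required in worms even without added damage, had 17.1 and 15.4 TPM in wild-type against 16.3 and 13.9 TPM in *xpc-1*. The TPM overlapped between the groups, whereas in TMM-scaled CPM, the scale of the test, both *xpc-1* libraries (91.1 and 79.2 CPM) lay below wild-type (101.8 and 92.1 CPM). The log2 fold change was -0.19 with a 95% interval from -0.42 to 0.044 (adjusted p = 0.184). The upper bounds of both kinase genes lay below the change measured for *cep-1*. *clk-2* (WBGene00000537, chromosome III, 7515223 to 7518524, minus strand) had 13.3 and 15.5 TPM in wild-type against 15.4 and 15.0 TPM in *xpc-1*. Its log2 fold change of 0.0023 was the smallest of the 10 genes in size, regardless of sign, and the 95% interval ran from -0.26 to 0.27 (adjusted p = 0.990). It shares 63 exon bases with *cls-1* on the other strand, and since strand was not used in counting, reads there could not be assigned by strand.

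The clamp subunits were also not called. *hus-1* (WBGene00002042, chromosome I, 3698102 to 3699300, plus strand) had 6.07 and 6.28 TPM in wild-type against 5.55 and 4.77 TPM in *xpc-1*. Both *xpc-1* libraries were the lower ones, yet the log2 fold change of -0.34 had a 95% interval from -0.85 to 0.18 (adjusted p = 0.282). *mrt-2* (WBGene00003417, chromosome III, 11747042 to 11750160, plus strand), the worm RAD1 and a gene needed to maintain telomeres, had 13.7 and 15.4 TPM in wild-type against 14.4 and 12.9 TPM in *xpc-1*. The TPM overlapped, while in TMM-scaled CPM the *xpc-1* libraries (10.3 and 9.44 CPM) lay below wild-type (10.4 and 11.8 CPM). The log2 fold change was -0.17 with a 95% interval from -0.53 to 0.18 (adjusted p = 0.423).

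The effector kinases differed in what was measured. *chk-1* (WBGene00000498, chromosome V, 3757047 to 3759469, minus strand) had 17.9 and 23.6 TPM in wild-type against 35.2 and 36.9 TPM in *xpc-1*. All *xpc-1* values lay well above wild-type, and the log2 fold change was 0.72 (standard error 0.14, adjusted p = 0.00397). It shares 28 exon bases with *gid-7* on the same strand. *chk-2* (WBGene00000499, chromosome V, 19908765 to 19916023, minus strand) had 1.47 and 2.50 TPM in wild-type, from 102 and 160 counts, against 2.30 and 2.48 TPM in *xpc-1*. Both *xpc-1* libraries lay between the wild-type libraries, and the log2 fold change of 0.19 had a 95% interval from -0.51 to 0.90 (adjusted p = 0.673). With this spread between the wild-type libraries, a change in *chk-2* as large as that of *chk-1* lay within the interval and was not excluded. Whether these 2 kinase genes differ in response was not tested.

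The ubiquitin ligase partners rose together. *brc-1* (WBGene00000264, chromosome III, 3853026 to 3862958, minus strand) had 7.46 and 8.46 TPM in wild-type against 13.7 and 12.9 TPM in *xpc-1*, with no overlap between the strains. The log2 fold change was 0.66, with a standard error of 0.13 (adjusted p = 0.0049). *brd-1* (WBGene00000265, chromosome III, 6885204 to 6889523, minus strand) had 8.82 and 9.21 TPM in wild-type against 17.9 and 16.96 TPM in *xpc-1*. Its adjusted p was the lowest of the 10 genes, and the log2 fold change of 0.87 had a standard error of 0.12 (95% interval from 0.60 to 1.14, adjusted p = 0.000657). The level of *brd-1* relative to *brc-1* was 1.18 and 1.09 in wild-type, against 1.31 for each *xpc-1* library. It was 1.18 and 0.798 in the *csb-1* libraries, and the ratio was not tested. The calls of the 4 genes in *xpc-1* depend on the spread assumed. In a single fit of all 6 libraries, which takes in the unlike *csb-1* libraries, 0 of the 10 genes and 0 of all genes were called, with an adjusted p of 0.948 for each of the 4, while 267 genes had an unadjusted p under 0.05. When a change had to exceed 1.5-fold, 0 of the 10 genes were called.

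**Figure D2:**
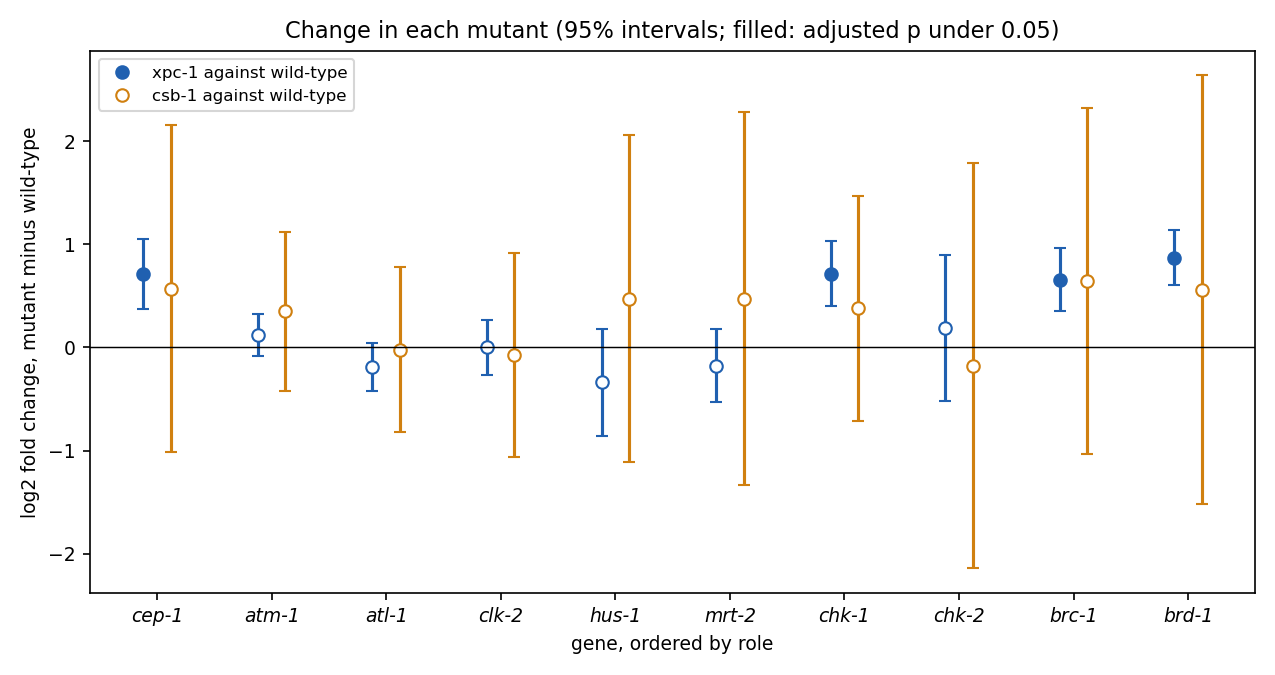
Log2 fold change of each gene in *xpc-1* (blue) and *csb-1* (orange) against wild-type from edgeR, with 95% intervals and genes ordered by role; filled points have an adjusted p under 0.05. The 4 filled points are *cep-1*, *chk-1*, *brc-1* and *brd-1* in *xpc-1*, and all *csb-1* intervals include 0.

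The rest of the checkpoint pathway was read from lists of genes chosen by function. The counts in each list stand beside the 37.1% of all genes tested that were called, and the 20.0% that were called higher. Of 6 genes for other parts of the clamp, its loader and the mediators of ATR signalling, 4 were called higher in *xpc-1* and 0 lower, with a median log2 fold change of 0.53. *hpr-17*, the worm counterpart of the clamp loader RAD17, had the largest rise, from 5.71 and 5.98 CPM to 12.4 and 16.4 CPM (log2 fold change 1.302, adjusted p = 0.000765). *tipn-1* and *tim-1*, counterparts of the replication fork proteins TIPIN and TIMELESS, rose by log2 fold changes of 0.79 and 0.50, and *mus-101*, the TopBP1 counterpart, by 0.55. Of 6 genes reported to regulate CEP-1, 4 were called higher and 1 lower. *gld-1*, a germline RNA-binding protein that represses *cep-1* translation, rose by a log2 fold change of 1.84 (adjusted p = 3.87e-05), and *fsn-1*, an F-box protein, by 0.53. *ape-1*, the worm iASPP, rose by 0.33. The arginine methyltransferase gene *prmt-5* fell by 0.50 on the log2 scale (adjusted p = 0.00926).

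Neither CEP-1 target was called. *egl-1*, the BH3-only gene that starts apoptosis, had 7.37 and 6.65 TPM in wild-type against 9.43 and 11.8 TPM in *xpc-1*. Both *xpc-1* libraries were higher, and the log2 fold change of 0.52 (standard error 0.25) had an adjusted p of 0.134. *ced-13*, the other BH3-only target, had 2 counts in each wild-type library, and 6 and 0 counts in *xpc-1*, too few to be tested. The remaining apoptosis genes were called higher, with log2 fold changes of 0.95 for the caspase gene *ced-3*, 0.66 for its inhibitor *ced-9* and 0.57 for its activator *ced-4*. Among 7 genes of the Cdc25 phosphatases, Wee1 kinases and Cdk1, through which the checkpoint halts division, 6 were called higher and 0 lower, with a median of 1.19. The largest values were 2.13 for *cdc-25.3* and 1.35 for *wee-1.1*, and the smallest called were 1.11 for *cdc-25.2* and 0.80 for *cdk-1*. Of 24 genes of homologous recombination and crosslink repair, 9 were called higher, 0 lower and 15 not at all, with a median of 0.31. The share called in either direction was close to that of all genes, of which 20.0% were called higher and 17.1% lower. *rmh-1*, a partner of the BLM helicase, rose by 1.06 and *com-1*, the CtIP counterpart, by 0.80, while the smallest called changes were 0.43 for *smc-6* and 0.47 for *dog-1*.

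Markers of dividing cells and of the germ line were higher in the same *xpc-1* libraries. All 7 replication genes, the helicase genes *mcm-2* to *mcm-7* and *pcn-1*, which encodes the sliding clamp PCNA, were called higher, and their summed level ranged from 419 to 472 TPM in wild-type and from 914 to 983 TPM in *xpc-1*. *pcn-1* was the largest single part of these sums, at 148 and 182 TPM in wild-type against 364 and 411 TPM in *xpc-1*. All 6 germ line markers were called higher, and their sum ranged from 48.1 to 50.6 TPM in wild-type and from 132 to 133 TPM in *xpc-1*. All 4 oocyte markers (*oma-1*, *oma-2*, *rme-2* and *puf-5*), none of which was at 0 in any library, were called higher as well, with a median log2 fold change of 1.89 and sums of 23.7 to 29.7 TPM in wild-type and 103 to 110 TPM in *xpc-1*. *gld-1* stands both in the germ line list and among the CEP-1 regulators. The 3 body wall muscle markers were called lower, with sums of 1890 to 2158 TPM in wild-type and 1487 to 1573 TPM in *xpc-1*. Of 3 neuron markers 1 was called higher and 1 lower, as were 1 and 1 of 3 epidermis markers, and 0 of the intestine, sperm and vitellogenin markers tested were called. These are transcript levels in whole L1 larvae, and they do not show that oocytes or more cells of any type were present. The part of these transcripts in the rise of *cep-1*, *chk-1*, *brc-1* and *brd-1* was not tested.

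**Figure D3:**
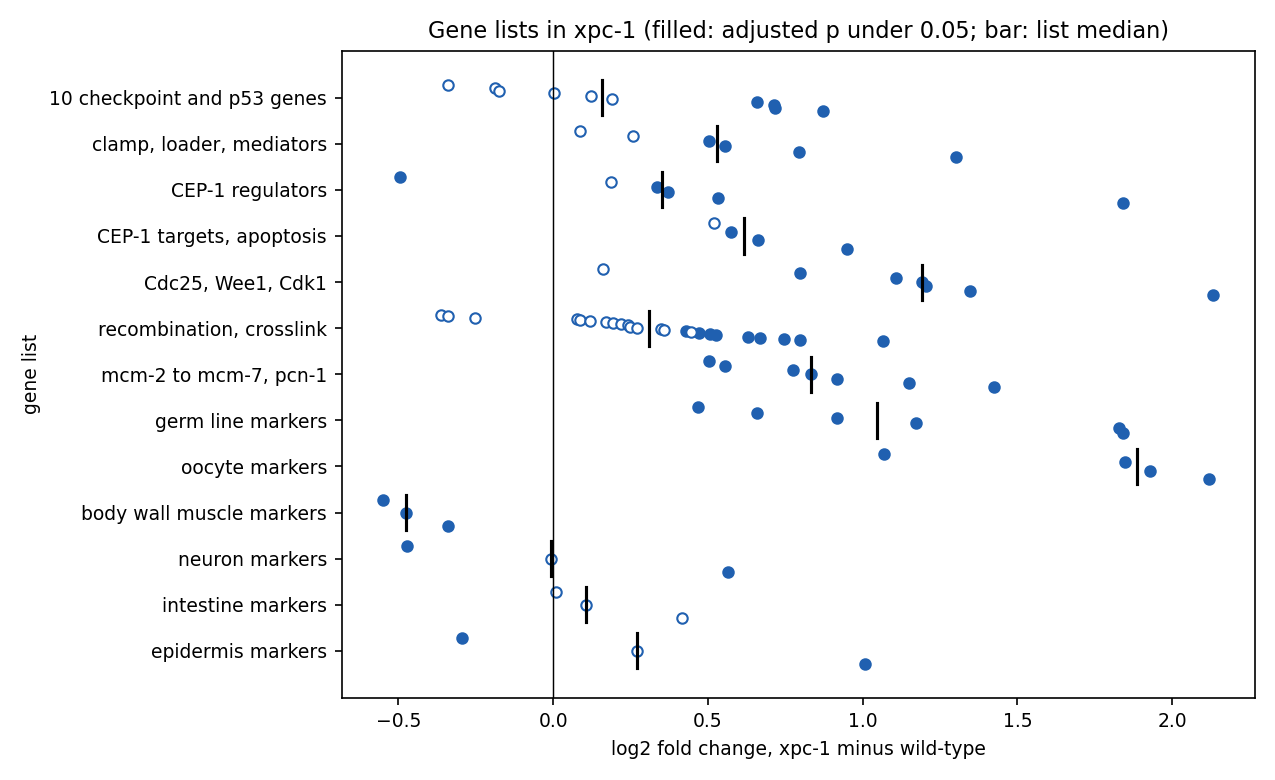
Log2 fold change in *xpc-1* against wild-type of each tested gene in 13 lists, with 1 point per gene, filled where the adjusted p was under 0.05, and a bar at each list's median. The medians are 0.16 for the 10 checkpoint genes, 0.83 for the replication genes, 1.89 for the oocyte markers and -0.47 for the body wall muscle markers.

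In *csb-1*, the TPM of most of these genes lay above wild-type in one library and below it in the other, and edgeR called none of them. In replicate 1, 8 of the 10 genes had a TPM above both wild-type libraries. In replicate 2, 9 of the 10 lay below both. In TPM, the *csb-1* libraries had 16.1 and 3.38 TPM for *cep-1*, 21.0 and 3.90 TPM for *brc-1*, and 24.7 and 3.11 TPM for *brd-1*, each with wild-type between them. The same held for *chk-1* at 38.3 and 11.9 TPM, *atm-1* at 20.2 and 8.74 TPM, *hus-1* at 8.18 and 5.62 TPM, *atl-1* at 17.8 and 9.32 TPM, and *chk-2* at 2.58 and 0.728 TPM. *clk-2* had 13.5 and 8.72 TPM, of which the first lay within the range of wild-type. *mrt-2* went the other way, with 12.8 TPM in replicate 1, below wild-type, and 16.3 TPM in replicate 2, above it.

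The edgeR test against wild-type called 0 of the 10 genes and 0% of the 17730 genes tested, while 507 genes had an unadjusted p under 0.05 and DESeq2 called 69, none of them among the 10. The log2 fold changes of the 10 genes ran from -0.18 for *chk-2* to 0.64 for *brc-1*, the lowest unadjusted p was 0.274, and the 95% intervals reached from -2.14 to 2.64. Their median was 0.43, beside 0.15 over all genes tested. The scaling matters here: with library size in place of TMM factors the median was 0.16 for the 10 genes and -0.093 for all genes. In TMM-scaled CPM, *csb-1* replicate 2 lay below both wild-type libraries in 4 of the 10 genes and above both in 4, where TPM had 9 below. Both *csb-1* libraries were above both wild-type libraries for *atm-1* and *hus-1*, which is 2 of 10 genes against 13.7% of all genes tested, and below them for 0 of 10 against 19.3%.

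The calls depended on which *csb-1* library was kept. Without replicate 2, *cep-1*, *atm-1*, *chk-1*, *brc-1* and *brd-1* were called higher, with log2 fold changes of 1.05, 0.41, 0.65, 1.17 and 1.22, while 55.9% of all genes tested were called (9734 genes). Without replicate 1, *hus-1* and *mrt-2* were called higher at 0.72 and 1.02 and *brd-1* was called lower at -0.67, while 53.9% of all genes tested were called (9315 genes). In these fits the lone *csb-1* library is assumed to vary like the wild-type libraries. *brd-1* was thus called in both, in opposite directions. The replication genes summed to 1150 TPM in *csb-1* replicate 1 and to 253 TPM in replicate 2, and the oocyte markers to 155 and 3.04 TPM. The low replication sum of replicate 2 depends on the TPM scale. In TMM-scaled CPM, both *csb-1* libraries lay above both wild-type libraries for 5 of the 7 replication genes, against 13.7% of all genes tested. In replicate 2, *mcm-7* was lower, at 74.1 against 103 and 123 CPM in wild-type, and *pcn-1* lay between the wild-type libraries. *egl-1* had 11.3 and 1.09 TPM in these libraries. With both libraries, 0 genes were called in each of the pathway and marker lists. The part of the replication and oocyte transcripts in the values of the 10 genes was not tested.

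The summed level of *cep-1*, *chk-1*, *brc-1* and *brd-1* was set beside that of the 7 replication genes in every library, a comparison chosen after the values were seen. In wild-type the 4 genes summed to 40.8 and 48.1 TPM. In *csb-1* the sums were 100.1 and 22.3 TPM, and in *xpc-1* they were 79.6 and 77.0 TPM, so the highest library was 4.49 times the lowest. The replication genes ranged 4.54-fold over the same libraries. Expressed as a percentage of the replication genes, the 4 genes lay between 7.84% and 10.2% in all 6 libraries. The other 6 genes summed to between 49.4 and 75.2 TPM, a 1.52-fold range, and their percentage ran from 6.43% to 19.5%. The 4 genes were picked for their rise in *xpc-1*, so their values there are a description of that choice. TPM of all genes in a library share 1 total, and in TMM-scaled CPM the 4 genes of *csb-1* replicate 2 lay nearer to wild-type. In CPM that library had 9.21 for *cep-1*, 27.1 for *chk-1*, 10.2 for *brc-1* and 8.76 for *brd-1*. The wild-type libraries had 9.82 and 10.1, 22.4 and 29.6, 10.7 and 12.2, and 13.6 and 14.3 CPM, in the same order. The relation was not tested.

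**Figure D4:**
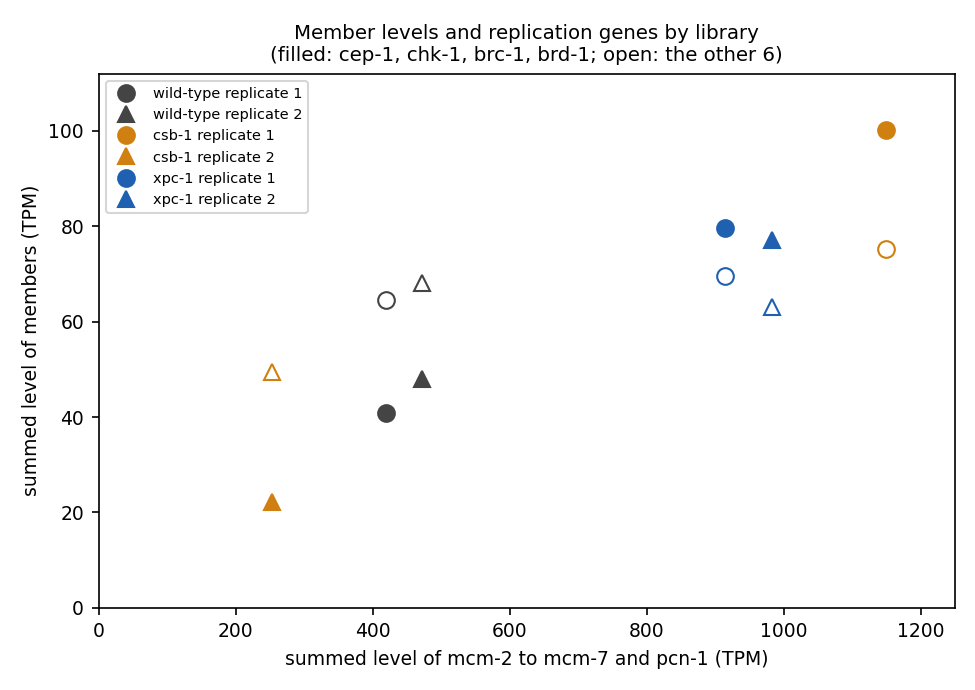
Summed level in TPM of *cep-1*, *chk-1*, *brc-1* and *brd-1* (filled) and of the other 6 genes (open) against the summed level of 7 replication genes (*mcm-2* to *mcm-7* and *pcn-1*), with 1 pair of points per library and colours for the strains. The filled points run from 22.3 TPM in *csb-1* replicate 2 to 100.1 TPM in *csb-1* replicate 1, and the open points from 49.4 to 75.2 TPM.

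The 10 genes varied to different degrees across the 6 libraries. As a measure of likeness, log2 CPM were centred on each gene's mean and the root-mean-square distance between genes was taken. *cep-1* and *brc-1* were each other's closest gene, at a distance of 0.10. *hus-1* and *mrt-2*, which encode partners in the clamp, were also closest to each other, at 0.29, but *hus-1* was at the same rounded distance of 0.29 from *atl-1*. The closest gene to *atm-1* was *atl-1* and to *brd-1* was *brc-1*. *atl-1* and *clk-2* were each other's closest gene, at 0.18. *chk-1* was closest to *cep-1*, and *chk-2* to *chk-1*. These distances come from libraries that share all their other differences, above all those between the *csb-1* libraries, and were not tested.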

How the data were processed

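RNA-seq counts of L1 larvae of 3 strains were analysed, with 2 libraries per strain. The authors aligned reads with STAR, kept properly paired reads of high mapping quality, removed mitochondrial reads and counted reads on exons with featureCounts 2.0.4, and the deposited values are raw counts per gene. Per the file headers the annotation was Ensembl release 105 of WBcel235, whereas the methods name a WormBase release. No strand option was set and both mates were counted, so counts are not independent molecules. Gene types came from release 115 of the same assembly and symbols from a names table, in which all 97 list entries had a match. No sequences are shown.

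TPM were computed from counts and summed exon length. Genes that reached 10 counts in 2 or more of the fitted libraries were tested with edgeR 4.0.16 (TMM, quasi-likelihood, Benjamini-Hochberg over all genes tested, threshold 0.05), in a fit of the 4 libraries of each comparison. Fits of 4 libraries were preferred because the *csb-1* libraries were known to differ. The members, lists and fits were chosen with earlier results of these data known. From the other lists, *egl-1*, *ced-13* and up to 2 called genes with the highest and 2 with the lowest change in *xpc-1* per list were named. The test was tried on counts simulated from wild-type means with its own fitted spread, so that trial cannot check the model. The labels do not say that libraries came from separate cultures, so p-values measure the spread between these libraries, which may be technical. No 2 libraries of a strain were alike within counting error. Python 3.11.15 (pandas 2.3.3), R 4.3.3 and DESeq2 1.42.0 were also used.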

Additional observations from a re-analysis of the deposited data

How the results depend on the processing

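The alternatives were DESeq2, other scaling and count filters, halved counts, a replicate block, a single fit of 6 libraries, a minimum of 1.5-fold and leaving out each library. Genes called in *xpc-1* numbered 6653, and 0 in the fit of 6 libraries and 1469 with the minimum fold, where 0 of the 10 genes were called. Leaving out 1 library kept 3 or 4 of them called. In *csb-1*, where 0 genes were called, DESeq2 called 69. With 1 library left out the *csb-1* counts ran from 0 to 9734 genes and from 0 to 5 of the 10. The replicate block called 8850 genes in *xpc-1*, where it added *atl-1* as lower (-0.19, adjusted p = 0.012, against 0.184 without it and 0.012 to 1 over all alternatives), and 0 in *csb-1*. The labels do not say that a replicate number marks a shared culture or day, so the libraries were not treated as paired. Replicate differences had correlations across genes of 0.11 between wild-type and *xpc-1* and 0.0025 between wild-type and *csb-1*.

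Among the 10 genes in *xpc-1*, signs changed only for those not called with all 4 libraries. In *csb-1*, 0 genes were called with all 4 libraries, so the same cannot be asked there. In *xpc-1*, *clk-2* was -0.079 with upper-quartile factors, -0.0063 with 10 counts in every library and -0.016 with 6 libraries, and -0.14 to 0.10 with 1 library left out, where *chk-2* ran from -0.18 to 0.61. In *csb-1*, *atl-1* was 0.039 with DESeq2. With 1 library left out there, *cep-1* ran from -0.12 to 1.05, *atl-1* from -0.097 to 0.058, *chk-2* from -0.58 to 0.26, *mrt-2* from -0.41 to 1.02, *clk-2* from -0.31 to 0.14, *brc-1* from -0.17 to 1.17 and *brd-1* from -0.67 to 1.22. Causes were not tested. Leaving a library out of a pair rests on the spread of the remaining pair.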

Other observations

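Expressed singly as a percentage of the replication genes, the values ranged 1.39-fold for *brc-1*, 1.501-fold for *chk-1*, 1.51-fold for *cep-1* and 1.74-fold for *brd-1*. Among the other 6 checkpoint genes they ran from 2.36-fold for *chk-2* to 5.75-fold for *mrt-2*. These groups were split by their calls in *xpc-1*, where the replication genes also rose. The contrast between them is therefore partly set by that choice and was not tested.

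The level of *mrt-2* relative to *hus-1*, its partner in the clamp, was 2.26 and 2.46 in wild-type. It was 1.57 and 2.90 in the *csb-1* libraries, which lie on either side of wild-type, and 2.59 and 2.71 for *xpc-1*. The level of *atl-1* relative to *atm-1* was 1.32 and 1.18 in wild-type, 0.879 and 1.07 for the *csb-1* libraries, and 1.04 and 0.980 for the *xpc-1* libraries. Neither *atl-1* nor *atm-1* was called in either mutant in the main test, and these ratios were not tested.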
